A study of Mus musculus with 2 samples.

Results

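The genes described here are 10 genes grouped as trophoblast genes. They are Cga and Plac1, listed as placental genes, and the trophoblast regulators Elf5, Cdx2, Eomes, Gata3, Tfap2c, Hand1, Ascl2 and Tead4. The placental use of Cga given below is that in human. The members were chosen with earlier results of these data known. Their probe sets were taken by gene symbol, as those of an exon array whose platform symbol is exactly that of a member. This gave 79 probe sets of 9 genes, and Tfap2c, which the platform lists under its older symbol Tcfap2c, added 10 more. The 10 genes therefore have 89 of the 229581 probe sets of the table, and they are 10 of the 16380 genes that have probe sets with a single symbol. RNA of Smad3-/- embryonic stem cells (ESCs) and of wild-type (WT) ESCs, both labelled C57BL/6, was hybridized to 1 array for each genotype. Both lines were grown with LIF and 2i (CHIR99021, which inhibits Gsk3, and PD0325901, which inhibits Mek), and the methods describe passaging to remove feeder cells. The Smad3-/- cells are labelled as a knockout of Smad3, a transcription factor that carries Activin, Nodal and TGF-beta signals to the nucleus. The sources do not say whether each line was a single clone. The gene value of Smad3 was higher in the library labelled Smad3-/- (0.375 on the log2 scale). The median Smad3 signal was 10.32 there, against 9.785 in the library labelled WT. A loss of the whole transcript would give the opposite direction. Past 1.5-fold, 7 of the 16 Smad3 probe sets were higher and 1 was lower (6.79 in the library labelled Smad3-/-, against 9.29 in that labelled WT). The sources do not name the deleted part of Smad3, so these probe sets do not settle the label, and every direction given here rests on it.

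The trophoblast is the outer lineage of the early mouse embryo, and it builds most of the placenta. It separates from the inner cell mass, the source of ESCs, when Tead4 switches on Cdx2 in the outer cells, while Oct4 (Pou5f1) and Cdx2 oppose each other. Cdx2, Eomes, Elf5, Gata3 and Tfap2c then hold trophoblast stem cells in their state, Ascl2 maintains the spongiotrophoblast and Hand1 drives the formation of trophoblast giant cells. ESCs rarely give rise to trophoblast, and the Elf5 promoter is a known point at which this lineage is closed in them.

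Values are log2 signal, so that a difference of 1 is 2-fold, and every difference is the Smad3-/- array minus the WT array. The value of a gene in an array is the median over its probe sets. Its difference is the median of the probe set differences, which need not equal the difference between the 2 medians. The threshold of 1.5-fold that the methods give is 0.585 on this scale. An expression floor of 8.64 was set at the middle of the higher gene value over the 16380 genes, and a gene that reached it in at least 1 array is called expressed here. Probe sets differ in how well they hybridize, so signal is only a rough guide between genes. This limits the floor and the summed signals below, which do set genes side by side. With 1 array for each genotype no difference has a replicate check or a p-value. The number of arrays limits the precision, and the spread over the probe sets of a gene comes from a single pair of RNA samples.

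Of the 10 genes, Cga and Plac1 exceeded their WT level by more than 1.5-fold, which makes 2, and 0 were lower by that much. Over all 16380 genes 1.14% were higher (186 genes) and 0.69% lower (113 genes), and after quantile normalization 145 were higher and 138 lower. Both Cga and Plac1 lay under the expression floor, where 1.39% of 8188 genes were higher and 1.18% were lower. The expressed members were 4, namely Tead4, Tfap2c, Eomes and Gata3, of which Gata3 reached the floor only in the Smad3-/- array. None of these passed 1.5-fold, while 0.879% of expressed genes were higher and 0.195% lower. The median difference over the 10 members was 0.135, beside 0.035 over all genes. In bulk RNA a change in the number of cells that express a gene and a change in the RNA per cell cannot be told apart.

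**Figure D1:**
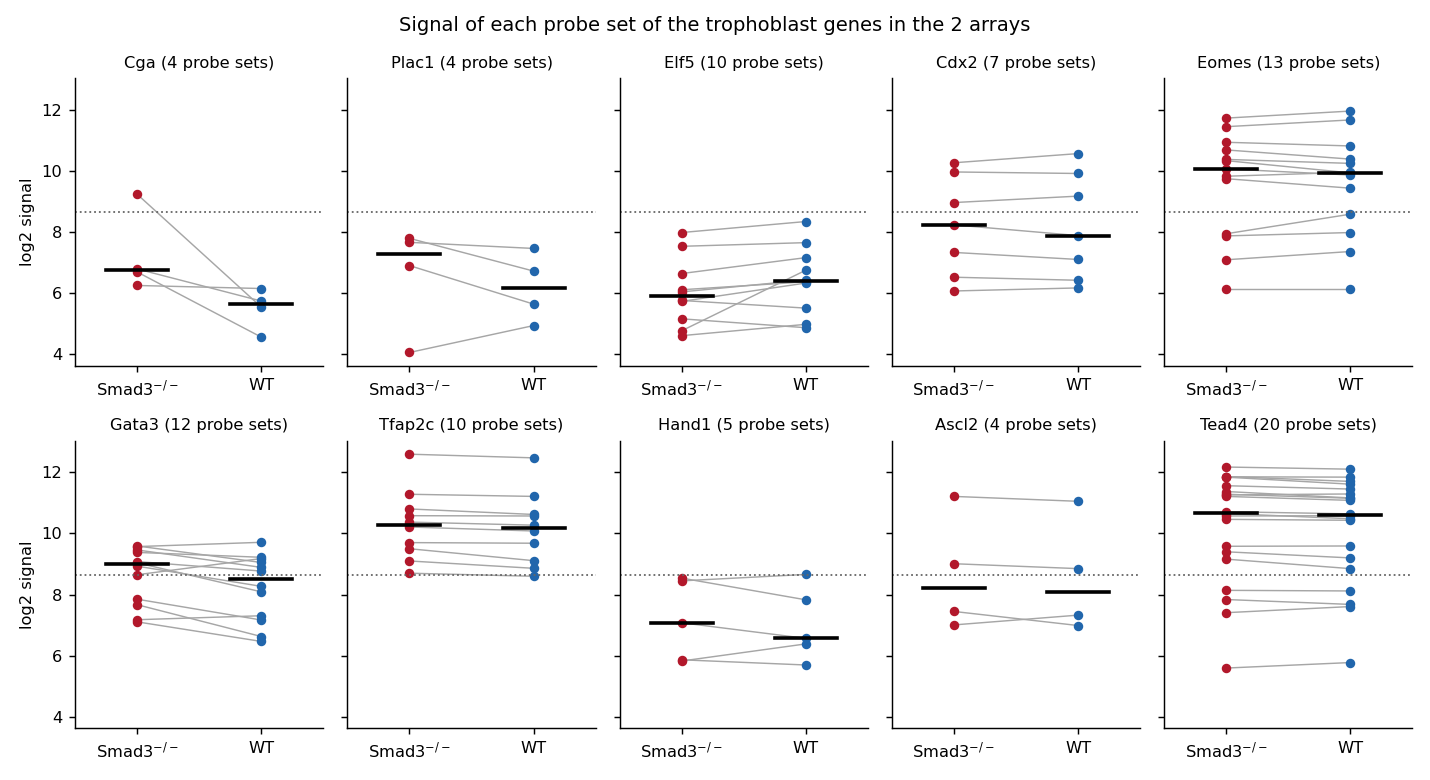
Log2 signal of every probe set of the 10 trophoblast genes in the Smad3-/- array (red, left) and the WT array (blue, right); a grey line joins the values of 1 probe set, a black bar is the median over the probe sets and the dotted line is the expression floor of 8.64. The lines of Cga slope down to WT, those of Tead4 and Tfap2c are nearly level, and the probe sets of Plac1 cross.

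Cga encodes the alpha subunit that luteinizing hormone, follicle-stimulating hormone and thyrotropin share in the pituitary, and that chorionic gonadotropin uses in the human placenta. Its 4 probe sets had signals of 9.23, 6.69, 6.79 and 6.25 in Smad3-/- ESCs, against 5.54, 4.56, 5.74 and 6.15 in WT ESCs, in the same order. All 4 were higher in Smad3-/- ESCs, but they differed widely in how much. The probe set 4337438 had a difference of 3.69 (12.9-fold), rank 25 among the 209279 probe sets with a single symbol. The other differences were 2.13 (4.38-fold), 1.05 (2.07-fold) and 0.10 (1.07-fold). The gene value was 1.59 (3.01-fold), with an SD of 1.54 over the 4 probe sets, which ranked 5 of 16380 genes from the highest down. Of the 774 genes with 4 probe sets, 7 (0.904%) had at least 3 that were higher by more than 1.5-fold. Such shares, here and below, are matched for the number of probe sets and not for signal. Over the whole array 15.0% of probe sets with a mean signal of 5 to 6 were higher by that much. The share was 8.33% at 7 to 8 and 0.703% at 11 to 12, so bright genes lower the share set beside a dim one. In WT ESCs all 4 probe sets were under the floor, and in Smad3-/- ESCs 1 of the 4, again 4337438, was above it.

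Cga was higher by more than 1.5-fold under all 9 alternative settings, from 0.85 with a pseudocount of 50 to 3.69 at its brightest probe set. The single probe set 4337438 raised the gene value, which was 1.59 (3.01-fold) with it and 1.05 (2.07-fold) without it. The promoter of Cga in the RefSeq annotation of GRCm38.p6 (chr4:34893529-34893828, plus strand), 250 bases before to 50 after the start site, is shown because Cga had the largest difference of the 10 genes. Capitals mark matches, on either strand, to any of 7 short motifs. Smad proteins recognise CAGAC and zinc finger proteins of the Gata3 family recognise AGATAA. The motif of TEAD proteins was written CATTCC and that of AP-2 proteins GCCNNNGGC. The core of ETS proteins such as Elf5 was written GGAAGT, the cAMP response element TGACGTCA and the TATA box TATAAA.
Cga: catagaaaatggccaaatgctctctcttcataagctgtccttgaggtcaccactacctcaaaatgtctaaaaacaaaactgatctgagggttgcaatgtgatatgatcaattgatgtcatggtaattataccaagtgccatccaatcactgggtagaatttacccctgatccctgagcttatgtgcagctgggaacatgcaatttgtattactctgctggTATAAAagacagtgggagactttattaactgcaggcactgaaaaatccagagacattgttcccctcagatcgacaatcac
The only match in this window was TATAAA, which begins 30 bases before the start site. TATAAA was present in 13.6% of the 32851 promoter windows of this length in the table. The other 6 motifs were not in this window.

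Plac1 is an X-linked gene of the placenta, where its product is made mainly by trophoblast cells. Its 4 probe sets had signals of 7.79, 6.90, 7.66 and 4.06 in Smad3-/- ESCs, against 6.72, 5.64, 7.46 and 4.94 in WT ESCs, in the same order. Of these, 2 were higher by more than 1.5-fold, with 1.07 and 1.26, the brightest had 0.20, and the dimmest was lower, with -0.88 (1.84-fold). All 4 were under the floor in both arrays. The gene value of 0.635 (1.55-fold, SD 0.98 over probe sets) was just past the threshold and ranked 144 of 16380 genes. It came within 1.5-fold with a pseudocount of 50 (0.46), when probe sets were averaged (0.41) and at the brightest one (0.20), and it was 1.07 without the probe set farthest from its median. Of the 774 genes with 4 probe sets, bright or dim, 17 (2.20%) had at least 2 that were higher by more than 1.5-fold.

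Both RefSeq start sites of Plac1 are shown because Plac1 was the other member past 1.5-fold, with the same motifs in capitals (GRCm38.p6, minus strand, chrX:53240061-53240360 for the outer one and chrX:53114356-53114655 for the inner one).
Plac1 outer: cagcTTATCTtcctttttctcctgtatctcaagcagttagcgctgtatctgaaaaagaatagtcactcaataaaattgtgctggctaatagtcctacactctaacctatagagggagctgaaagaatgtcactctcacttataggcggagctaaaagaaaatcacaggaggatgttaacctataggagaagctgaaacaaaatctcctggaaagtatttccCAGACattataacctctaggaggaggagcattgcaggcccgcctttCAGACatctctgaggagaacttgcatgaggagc
Plac1 inner: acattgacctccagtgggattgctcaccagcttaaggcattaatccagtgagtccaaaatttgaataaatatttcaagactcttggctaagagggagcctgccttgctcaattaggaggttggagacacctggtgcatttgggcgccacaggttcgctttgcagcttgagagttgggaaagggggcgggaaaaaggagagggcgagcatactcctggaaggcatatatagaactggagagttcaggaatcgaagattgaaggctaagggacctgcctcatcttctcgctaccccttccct
The outer window held 2 copies of CAGAC, a motif found in 49.6% of all windows, and 1 match to AGATAA on the other strand, a motif found in 11.2%. The inner window held none of the 7 motifs. These matches are a description of the letters and are no evidence of binding.

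Elf5, the ETS factor that reinforces the trophoblast stem cell state, was the only one of the 10 genes with a gene value below 0. Over its 10 probe sets the signal ran from 4.61 to 7.98 (median 5.90) in Smad3-/- ESCs, against 4.87 to 8.34 (median 6.40) in WT ESCs. All 10 were under the floor in both arrays. The gene value was -0.365 (1.29-fold lower, SD 0.63), with 8 probe sets lower and 2 higher. Of the 843 genes with 10 probe sets, 9.61% had at least 8 lower. The farthest probe set, 4968046, had 4.77 in Smad3-/- ESCs, against 6.75 in WT ESCs, a difference of -1.98, and the median without it was -0.36. Elf5 stayed below 0 and within 1.5-fold under all 8 alternatives that could be computed, from -0.41 to -0.20.

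**Figure D2:**
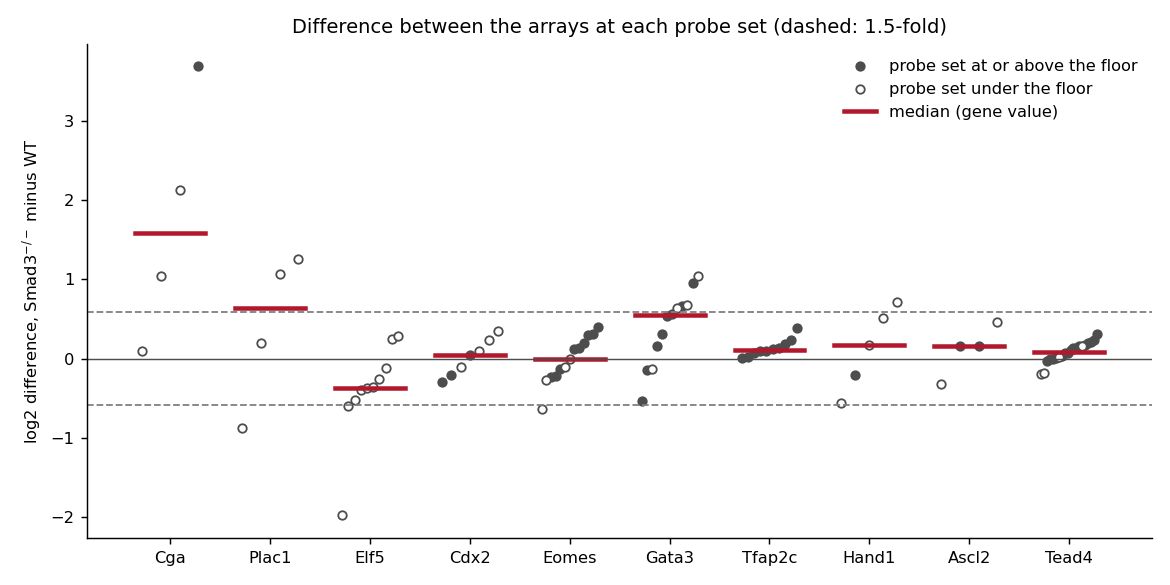
Log2 difference (Smad3-/- minus WT) at each probe set of the 10 genes; filled points are probe sets at or above the expression floor in at least 1 array, open points lie under it, red bars are the gene values and dashed lines mark 1.5-fold. The highest point is the Cga probe set at 3.69 and the lowest is the Elf5 probe set at -1.98.

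Gata3, a zinc finger factor that acts beside Cdx2 in the trophectoderm, lay just inside the threshold. Over its 12 probe sets the signal ran from 7.11 to 9.59 (median 8.985) in Smad3-/- ESCs, against 6.47 to 9.71 (median 8.52) in WT ESCs. Its gene value was 0.555 (1.47-fold, SD 0.47), rank 221 of 16380 genes. Its median signal reached the floor in the Smad3-/- array and not in the WT array. Of the 12 probe sets 9 were higher, 5 of them by more than 1.5-fold, and the highest difference was 1.04. Of the 767 genes with 12 probe sets, bright or dim, 7 (0.913%) had at least 5 that were higher by more than 1.5-fold. The probe sets were not of 1 direction, since the brightest, 4607255, had 9.57 in Smad3-/- ESCs, against 9.71 in WT ESCs, and another was at -0.53. Gata3 did not reach 1.5-fold under any of the 9 alternatives, which ran from -0.14 at the brightest probe set to 0.57 without the farthest one.

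Tead4, the DNA-binding partner of the Hippo pathway coactivator Yap1, was covered by 20 probe sets, 16 of which reached the floor. The signal ran from 5.60 to 12.17 (median 10.68) in Smad3-/- ESCs, against 5.78 to 12.10 (median 10.61) in WT ESCs. Its gene value was 0.09 (1.06-fold, SD 0.13), no probe set passed 1.5-fold, and the differences ran from -0.20 to 0.31. Tfap2c, an AP-2 factor of the trophectoderm and of germ cells, was higher at all 10 of its probe sets, but only by 0.01 to 0.39. Its signal ran from 8.70 to 12.59 (median 10.29) in Smad3-/- ESCs, against 8.60 to 12.47 (median 10.175) in WT ESCs. The gene value was 0.11 (1.08-fold, SD 0.11). Of the 843 genes with 10 probe sets, 5.22% had all 10 higher, and 8 of the 10 probe sets of Tfap2c exceeded the median gene difference of 0.035.

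Eomes, a T-box factor of trophoblast stem cells that also acts downstream of Nodal in mesendoderm, had a gene value of 0.00 over 13 probe sets. The signal ran from 6.15 to 11.72 (median 10.06) in Smad3-/- ESCs, against 6.15 to 11.95 (median 9.93) in WT ESCs. In this gene 6 probe sets were higher, 6 were lower and 1 was level, and 1 dim probe set was lower by more than 1.5-fold (-0.64). The highest difference was 0.40, so the probe sets of Eomes scattered around 0 with an SD of 0.29.

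Cdx2, the homeobox factor that sets trophectoderm fate, had 7 probe sets with signals from 6.07 to 10.26 (median 8.23) in Smad3-/- ESCs, against 6.17 to 10.56 (median 7.88) in WT ESCs. Its gene value was 0.05 (1.04-fold, SD 0.23), and all 7 probe sets lay within 1.5-fold, 4 higher and 3 lower. The direction of this small value turned with the setting, to -0.30 at the brightest probe set and -0.21 when only the 3 probe sets at or above the floor were used. Hand1, a basic helix-loop-helix factor of giant cells, had 8.45, 8.54, 5.87, 7.08 and 5.83 in Smad3-/- ESCs, against 8.66, 7.83, 5.70, 6.57 and 6.39 in WT ESCs, in the same order. Its gene value was 0.17 (1.13-fold, SD 0.52) with 3 probe sets higher, 1 of them by more than 1.5-fold (0.71), and 2 lower, and it was -0.21 at the brightest probe set. Ascl2, an imprinted basic helix-loop-helix gene, had 7.01, 11.21, 7.45 and 9.01 in Smad3-/- ESCs, against 7.33, 11.05, 6.99 and 8.85 in WT ESCs, in the same order. Its gene value was 0.16 (1.12-fold, SD 0.32), and none of its 4 probe sets passed 1.5-fold.

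The larger differences of the members lay at probe sets of low mean signal. Of the 89 probe sets, 43 had a mean signal over both arrays under 8.64, and 15 of these were past 1.5-fold in either direction, beside 0 of the 46 with a higher mean. Of the 15, 3 reached the floor in 1 of the arrays, namely the Cga probe set at 3.69 and 2 of Gata3, each of them only in the Smad3-/- array. In all, 11 (12.4%) were higher by more than 1.5-fold and 4 (4.49%) lower, beside 5.95% and 3.65% of all probe sets with a single symbol. Of the 11, 3 belonged to Cga, 2 to Plac1, 5 to Gata3 and 1 to Hand1. Over the whole array the spread of the differences grew from bright signal down to a mean signal of 5 to 6. Below that it narrowed again, to an SD of 0.6039 at 4 to 5, 0.4154 at 3 to 4 and 0.2195 at 2 to 3. Among the 13374 probe sets with a mean signal of 5 to 6 the SD was 0.611, and 15.0% were higher and 13.8% lower by more than 1.5-fold. Among the 22763 with a mean signal of 11 to 12 the SD was 0.203, and 0.703% were higher and 0.338% lower by that much. A contrast between dim and bright probe sets was thus present over the whole array and is not particular to the members.

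**Figure D3:**
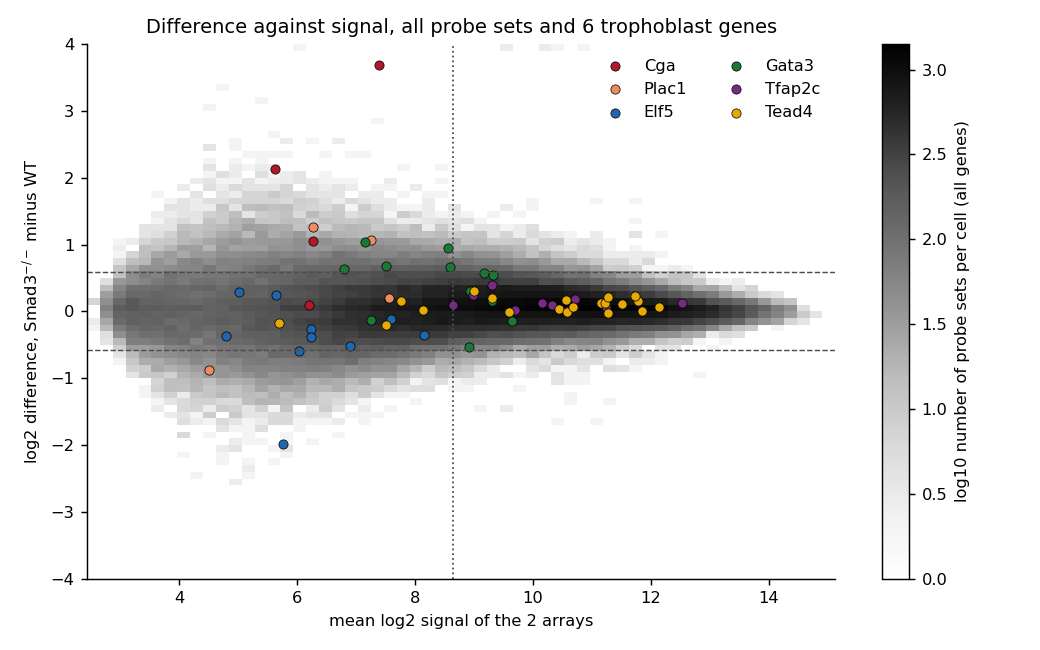
Log2 difference (Smad3-/- minus WT) against the mean log2 signal of the 2 arrays; grey shading counts all probe sets with a single symbol, with differences beyond 4 drawn at the edge, and coloured points are the probe sets of 6 trophoblast genes. The spread narrows to the right, where Tead4 and Tfap2c lie, and the highest coloured point is the Cga probe set at 3.69.

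The promoter windows of the 7 members in the RefSeq table differed in their content of CpG, the dinucleotide that marks the unmethylated promoters of many developmental genes. The Cga window held 1 CpG in 300 bases, beside a median of 7 over the 32851 windows, and the 2 windows of Plac1 held 3 and 6. The windows of Ascl2, Gata3 and Cdx2 held 23, 22 and 18, that of Eomes held 10, and the 2 of Elf5 held 3 and 10. The AP-2 motif GCCNNNGGC, present in 16.6% of windows, occurred 3 times in Gata3 and once in Cdx2. CATTCC (14.7% of windows) occurred in 1 window of Elf5, and CAGAC occurred in Cdx2, Gata3 and the other window of Elf5. GGAAGT (23.8% of windows) and TGACGTCA (1.79%) were not in any of the 9 windows. Tfap2c, Hand1 and Tead4 were not matched in that table.

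Further genes of the lineage were taken from 8 lists, chosen with earlier results known. Over all genes the median difference was 0.035, 57.5% were above 0, 1.14% were higher by more than 1.5-fold and 0.69% lower. With 0 or 1 gene past the threshold in each direction no list is called different from this background. Of 24 measured regulators and partners of trophoblast stem cells 0 were higher by more than 1.5-fold and 1 was lower, with a list median of 0.0975. The lower gene was Rhox9, a homeobox gene of the X chromosome and the placenta, whose median signal was 8.91 in Smad3-/- ESCs, against 9.67 in WT ESCs. All 7 of its probe sets were lower, and its gene value was -0.78. Its neighbour in the same cluster, Rhox6, had -0.58 with 4 of 4 probe sets lower, which is within 1.5-fold. Gata2, a GATA factor of giant cells, had 0.40 and Msx2 had 0.385. Of 17 measured Hippo and TEAD pathway genes none passed 1.5-fold, and their median was 0.08. The coactivator gene Wwtr1 (Taz) and the TEAD cofactor gene Vgll4 had 0.29 each, while Vgll2, of the same family as Vgll4, had -0.43 under the floor.

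The lists of the differentiated placenta differed in signal. Of 33 measured giant cell, spongiotrophoblast and prolactin family genes 1 was expressed, the imprinted gene Phlda2, with 12.04 in Smad3-/- ESCs and 12.215 in WT ESCs. The list's median was -0.10 and 24 of the 33 were lower than in WT, beside a median of -0.03 over all genes under the floor. No share of lower genes among all genes under the floor stands beside this count. The list median stayed below 0 under each setting, from -0.1375 after quantile normalization to -0.029 with a pseudocount of 50. It was -0.0125 over the 14 genes with probe sets at or above the floor. The only one past 1.5-fold was Prl5a1, a prolactin-like gene, at 0.65, with a median signal of 5.05 in Smad3-/- ESCs and 4.40 in WT ESCs, and the next in size was Prl2b1 at -0.37. Of 7 measured glycoprotein hormone subunits and receptors none was expressed and none passed 1.5-fold. Their median was -0.13, and Lhb, Fshb and Tshb, the beta subunit genes whose products pair with that of Cga, had -0.30, -0.06 and 0.11. Of 15 syncytiotrophoblast and labyrinth genes (median 0.06) 11 were expressed and 1 was higher by more than 1.5-fold, the ephrin receptor gene Epha4, at 0.605 (1.52-fold). All 20 of its probe sets were higher, and its median signal was 11.185 in Smad3-/- ESCs and 10.48 in WT ESCs. The glucose transporter gene Slc2a1 had 0.38 with 9 of 9 probe sets higher, and Synb, which encodes a fusion protein of the syncytiotrophoblast, had -0.31 under the floor.

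Trophectoderm is an epithelium, and of 17 measured epithelial genes (median 0.065) 1 was higher by more than 1.5-fold, the simple epithelial keratin gene Krt18. Its median signal was 9.68 in Smad3-/- ESCs and 9.09 in WT ESCs, and its gene value of 0.59 came from 6 of 7 probe sets that were higher and 1 at -0.54. Its pairing partner Krt8 had 0.40 with 12 of 13 probe sets higher, but -0.05 at its brightest probe set. Ocln, a tight junction gene, had 0.425, Krt19 had 0.385, the cadherin gene Cdh1 had -0.04 and Epcam had -0.23. Of 3 measured placental genes outside the other lists, Plac8 was higher at all 5 of its probe sets by more than 1.5-fold, with a gene value of 0.81 under the floor (median signal 7.61 in Smad3-/- ESCs and 6.80 in WT ESCs). Plet1, a surface protein of trophoblast progenitors, had -0.33 with 12 of 13 probe sets lower. The last list holds 16 ESC factors and was named for those that oppose trophoblast fate. Sox2, Esrrb and Fgf4 of this list are also in that of trophoblast stem cell regulators and partners, so the name does not hold for all. The 16 were all expressed, none passed 1.5-fold, and their median was 0.1325. Pou5f1 had 0.09, Sox2 had 0.095 and Nanog had 0.00.

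**Figure D4:**
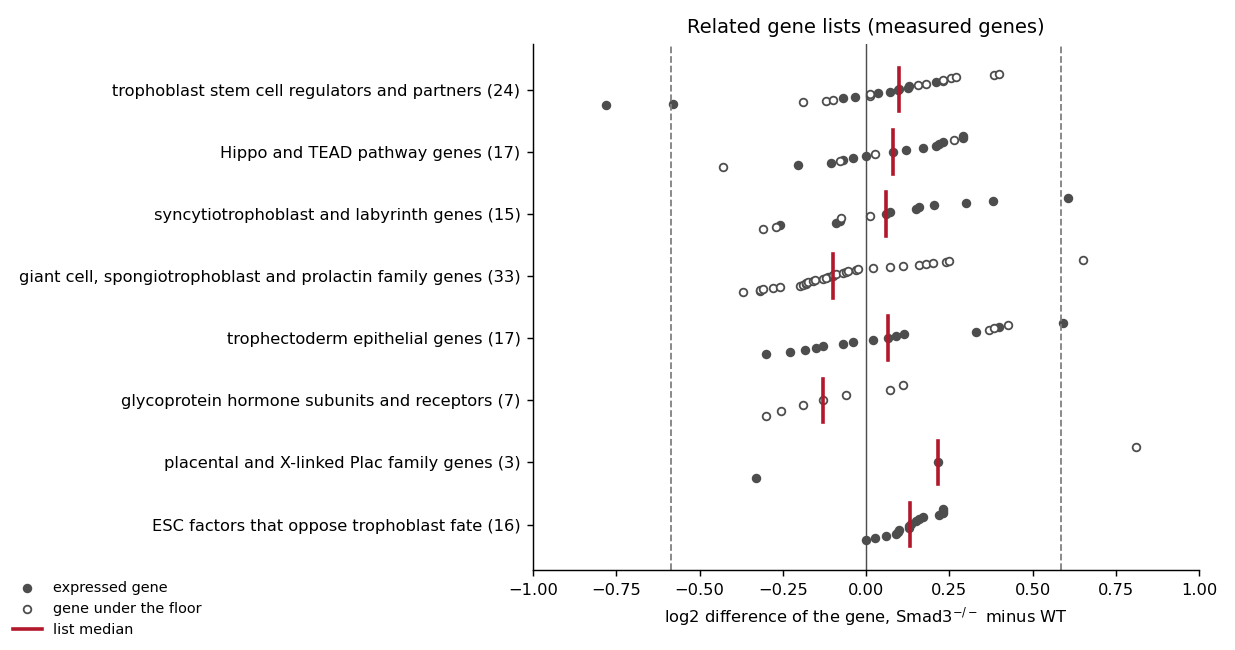
Gene values (log2 difference, Smad3-/- minus WT) of the measured genes of 8 related lists, with the number measured in brackets; filled points are expressed genes, open points lie under the floor, red bars are list medians and dashed lines mark 1.5-fold. Points past the dashed lines are Rhox9 on the left and Epha4, Prl5a1, Krt18 and Plac8 on the right.

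The labels were checked against markers. All 12 ESC markers were expressed in both arrays, with signals of 10.65 to 13.71 in Smad3-/- ESCs and 10.58 to 13.63 in WT ESCs, and none passed 1.5-fold. Of 15 fibroblast markers, which feeder cells would bring, 3 were expressed (Fn1, Vim and Col1a1) and 1 was higher by more than 1.5-fold, Pdgfrb, at 0.99 under the floor. Their summed linear signal was 19486 in Smad3-/- ESCs and 18327 in WT ESCs. Fn1 and Vim weigh most in this sum, with median signals of 13.58 and 12.275 in Smad3-/- ESCs, against 13.46 and 12.25 in WT ESCs. The median difference of the 15 was 0.04, and 9 were above 0 and 5 below it, beside 57.5% of all genes above 0. Among the 5 were the collagen genes Col1a1, Col1a2 and Col3a1, at -0.22, -0.155 and -0.225. Of 12 markers of the germ layers none passed 1.5-fold. Their median difference was -0.0775, and 3 were above 0 and 9 below it. Their summed linear signal was 4255 in Smad3-/- ESCs and 3983 in WT ESCs. Otx2 weighs most in this sum, with a median signal of 10.98 in Smad3-/- ESCs, against 10.67 in WT ESCs. The part of such cells in the values of Cga and Plac1 was not tested.

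**Figure D5:**
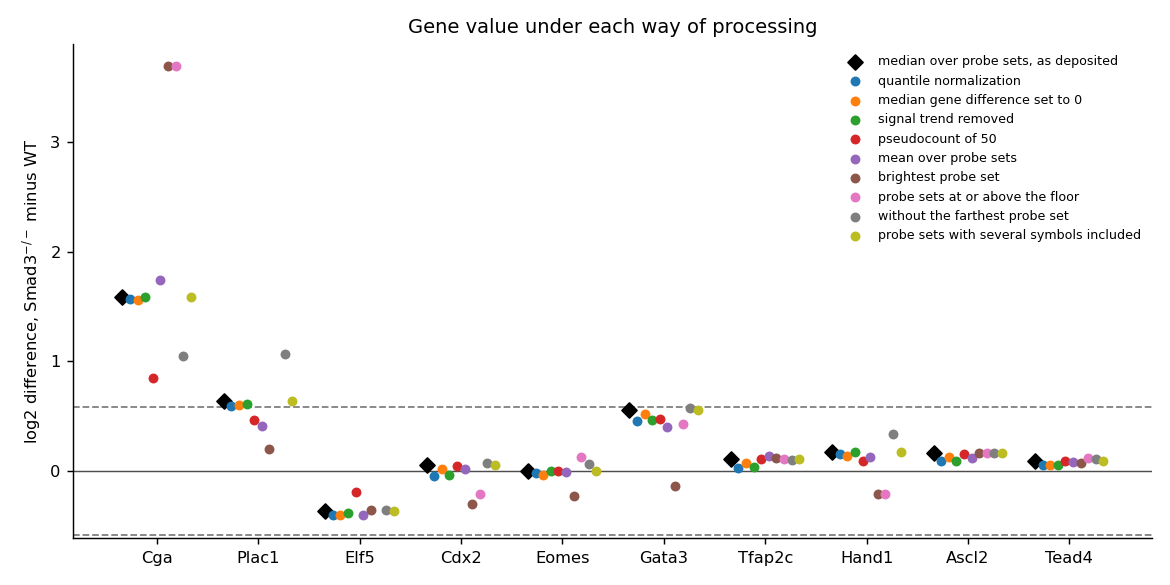
Gene value (log2 difference, Smad3-/- minus WT) of each of the 10 genes as the median over probe sets (black diamonds) and under 9 alternative settings (coloured points); dashed lines mark 1.5-fold. Cga lies above the upper line in every setting, Plac1 falls on both sides of it, and the others lie between the lines.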

How the data were processed

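Total RNA of 1 Smad3-/- and 1 WT ESC sample was hybridized to Affymetrix mouse exon arrays. The deposited values are log2 signal, 1 for each probe set and array. They run from 2.43 to 14.94, and base 2 was inferred because 31433 on a linear scale lies under the 65536 levels of a scanner. The submitters' processing notes name Affymetrix Expression Console and mm8, while Partek and Genespring are named in the methods. How background was corrected, probes summarized and arrays normalized is not given in the sources. The median signal was 8.89 in the Smad3-/- array and 8.80 in the WT array.

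The platform annotation gave 209279 probe sets 1 symbol, 4446 several and 15856 none here. Older symbols were updated through the RefSeq table of GRCm38.p6, which served for names, gene order and promoters and not for coordinates of probe sets. Of 16380 symbols 14190 were current, 2145 matched as older symbols and 45 did not match. Those with several symbols were left out of the gene values.

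The members, lists and rules were chosen with earlier results of these data known. Named genes were the 10 members and, from each list, those past 1.5-fold and up to 4 with the largest absolute difference. Values of other genes were added for their roles, or for their weight in a sum, after values were seen. These were Cdh1, Epcam, Pou5f1, Sox2, Nanog, Phlda2, Otx2, the hormone subunits, the expressed fibroblast markers and the collagen genes. The alternatives were quantile normalization, the median gene difference set to 0, removal of a lowess trend on signal (fraction 0.3), a pseudocount of 50, the mean, the brightest probe set, probe sets at or above the floor, the median without the farthest probe set, several-symbol probe sets included, and 2-fold. The steps were tested on simulated data, in which rises were added only to genes at or above the floor. Such a test does not cover genes under the floor, where Cga and Plac1 lie. The software was Python 3.11.15 with pandas 2.3.3, numpy 2.4.6, matplotlib 3.10.9 and statsmodels 0.14.6.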

Additional observations from a re-analysis of the deposited data

How the results depend on the processing

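A count within 1.5 times, a median over genes within 0.05 and a member's difference that moved by less than the SD between its probe sets counted as kept, yardsticks chosen after the values were seen. The count of 2 higher members became 1, which was Cga, with the pseudocount, the mean over probe sets, the brightest probe set, probe sets at or above the floor and the 2-fold threshold. The settings with the floor and with 2-fold keep fewer genes by construction, since Plac1 and Elf5 have no probe set at the floor, and for the others the cause was not tested. The count of 0 lower members was kept in each setting. The median member difference of 0.135 was 0.0675 after quantile normalization, 0.0708 after removal of the trend and -0.035 at the brightest probe set. Of 98 gene values of members under these settings and the probe set farthest from 0, which was added after the values were seen, 85 were kept and 13 moved, and none of the called values changed sign. This yardstick is wide for Cga (SD 1.54) and Plac1 (SD 0.98) and says little of their stability: Plac1 lost its call at 0.46 with the pseudocount, 0.41 with the mean and 0.20 at the brightest probe set, and Cga fell to 0.85 with the pseudocount. Of 72 list medians 56 were kept and 16 moved, among them that of the syncytiotrophoblast and labyrinth genes, which was -0.02 after quantile normalization. Over all genes the 186 higher and 113 lower became 324 and 419 at the brightest probe set, 239 and 206 without the farthest one, 83 and 27 with the pseudocount of 50, and 32 and 20 at 2-fold. No paired analysis was possible because there is 1 array of each genotype, and no probe set under the floor was set apart from background by a detection value.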

Other observations

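The 2 nearest measured genes on each side of each member were read for context, with genes ordered by their start in GRCm38.p6. Of these 40 neighbours 1 was higher by more than 1.5-fold and 0 were lower, and their median difference was 0.085, with a range from -0.425 to 0.72. Over all genes 1.14% were higher by that much and 0.69% lower, with a median of 0.035, so 1 of 40 is read as near this background. Both ends of this range lay beside Cga on chromosome 4. Smim8, a gene of a small integral membrane protein, was at 0.72 over 3 probe sets, with a median signal of 11.57 in Smad3-/- ESCs and 10.85 in WT ESCs. Zfp292, between Smim8 and Cga, was at -0.035, and Mob3b, a Mob family gene on the other side of Cga, was at -0.425 (9.10 in Smad3-/- ESCs and 9.445 in WT ESCs). Beside Plac1 on the X chromosome, Hprt had 0.145, Phf6 had 0.22 and Fam122b had 0.30. Ascl2 lies near the imprinted growth factor gene domain of chromosome 7, where Ins2 had 0.18, the tyrosine hydroxylase gene Th had -0.16 and Tspan32 had 0.07. Eomes, which shares chromosome 9 with Smad3, was flanked by Golga4 at 0.37, Itga9 at 0.35, Azi2 at 0.21 and Cmc1 at 0.07. These 4 measured neighbours were above 0 while Eomes was at 0.00, beside 57.5% of all genes above 0. An effect of position on the chromosome was not tested.

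Krt7, a keratin of the trophectoderm singled out after its values were seen, had 0.37 over 24 probe sets under the floor. Of these 18 were higher, 7 of them by more than 1.5-fold, and the highest difference was 1.61, but its brightest probe set was at -0.08.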
